A study of Mus musculus with 10 samples.

Results

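The acrosome and fertilization genes described here are 35 mouse genes whose proteins fill or build the acrosome, sit on sperm membranes, bind and fuse with the egg, or prepare sperm surface proteins for that task. They were found by gene symbol, and all 35 were listed among the 20007 genes of the adult testis table, while 25 were listed among the 17816 genes of the day 7 Sertoli cell table. The adult table holds whole testis, with 3 untreated libraries labelled WT and 3 labelled as a conditional knockout of Rnf20, the gene of an E3 ubiquitin ligase that marks histone H2B. Their exact age, and any allele beyond those 2 words, is not given in the sources used here. The day 7 table holds Sertoli cells, which nurse the germ cells of the seminiferous tubule, isolated from testes at 7 days after birth, passaged in culture and kept as adherent cells. The growth protocol in the labels reads adult tissue for these libraries too, while their titles and the paper's methods give day 7, and the methods name 3 individuals a genotype where 2 libraries were analysed here. It has 2 libraries from Rnf20 Flox/Flox mice, which carry loxP sites in Rnf20 and no Cre, and 2 from Amh-Rnf20-/- mice, in which Amh promoter-driven Cre deletes the loxP-flanked stretch in Sertoli cells. Germ cells do not use that promoter, so the deletion is meant for Sertoli cells and not for the cells that make an acrosome. The comparisons ask how far these genes differ between control and knockout in each kind of sample.

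The acrosome is a cap of Golgi-derived membrane over the sperm nucleus. Round spermatids, the haploid cells that follow meiosis, build it from vesicles that dock on the nuclear envelope, and fill it with proteases, hyaluronidases and matrix proteins. On reaching the egg the sperm releases this content, and proteins that become exposed on the equatorial segment bind and fuse with the egg membrane. Many of these genes are first transcribed in late spermatocytes or round spermatids, and chaperones in the endoplasmic reticulum of the same cells fold the surface proteins.

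The libraries had between 15431912 and 16574144 counts in adult testis and between 17477268 and 17705347 at day 7. TMM scaling factors, which correct each library for its composition, were between 0.710 and 0.761 in the adult controls and between 1.27 and 1.42 in the adult knockout libraries. Rnf20 itself had FPKM values (fragments scaled by gene length and library size) of 4.89, 3.32 and 4.09 in adult controls against 9.16, 5.76 and 9.85 in the adult libraries labelled knockout, with a log2 fold change of 0.12 and an edgeR adjusted p of 0.688. Whole testis holds Rnf20 from all its cells, and its FPKM was higher in all 3 libraries labelled knockout, which are called knockout libraries here by that label. At day 7 it was 16.6 and 16.01 against 10.3 and 12.6 (log2 fold change −0.49, edgeR adjusted p = 0.222). Among the adult libraries, the first labelled knockout stood apart, at a chi-square per degree of freedom of 88.1 and 118 from the other two, while these were 21.4 apart. Nothing in the labels says that the adult libraries come from separate animals, so p-values measure the spread between these libraries.

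Germ cell markers moved with the adult groups. The summed FPKM of 12 spermatid markers was between 126012 and 195020 in the controls and was 10.7, 92.5 and 50.5 in knockout libraries 1, 2 and 3, with Prm1 and Catsper1 at 0 counts in the first. The summed FPKM of 12 spermatocyte markers was between 5361 and 5624 in the controls and was 3.16, 309 and 422 in the knockout libraries, with Spo11 and Pgk2 at 0 counts in the first. The 12 spermatogonium markers summed to between 269 and 302 in the controls and to 60.5, 322 and 463 in the knockout libraries. All 6 Leydig cell markers, all 6 macrophage markers and all 6 stromal fibroblast markers passed the test as higher in the knockout libraries, as did 4 of 6 peritubular myoid, 2 of 6 endothelial, 3 of 12 spermatogonium and 2 of 12 Sertoli cell markers. At an adjusted p under 0.05 alone, 6 of the 12 Sertoli cell markers were higher, and of the 12 spermatogonium markers 4, namely Gfra1, Ddx4, Sohlh1 and Nanos3, were lower and 3 higher, at a list median of −0.82 in log2 fold change. Over all genes tested, 23% passed both thresholds as higher. At an adjusted p under 0.05 alone, 40.9% of all genes tested were higher and 40.6% lower. The summed FPKM of the Sertoli cell markers was between 701 and 878 in the controls and was 2966, 5828 and 6716 in knockout libraries 1, 2 and 3, of which Clu and Inha held 1857 and 766 in library 1. The median Sertoli cell marker was at 93.1% of its control mean on TMM-scaled counts in library 1, against 364% and 420.3% in libraries 2 and 3, and Sox9, Dhh, Fshr, Aard and Rhox5 lay below all controls in FPKM in library 1. Lower by the same test were 10 of 12 spermatid markers, 0 of 12 spermatocyte markers, of which 8 had an adjusted p under 0.05, and 1 of 12 Sertoli cell markers, Rhox5. By that test 23.7% of all genes tested were lower. The part that these markers play in the values of the acrosome genes was not tested. In whole tissue, fewer cells of a type and less RNA per cell cannot be told apart.

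In adult testis the acrosome and fertilization genes were low in the knockout libraries as a group. On TMM-scaled counts all 3 knockout libraries lay below all 3 controls for 35 of the 35 genes, where 43.1% of all 15919 genes tested did so. In FPKM this did not hold for Gopc, whose knockout libraries were above the controls, or for Ly6k, whose groups overlapped. Their median log2 fold change was −5.77, against 0.01 over all genes tested, and it ran from −10.35 for Prss37 to −0.10 for Gopc. The study's thresholds, an absolute log2 fold change over 1 with an adjusted p under 0.001, were passed by 18 of the 35 genes, all as lower and 0 as higher, in edgeR's quasi-likelihood test. Over all genes tested, 23.7% passed as lower and 23% as higher. DESeq2 passed 33 of the 35 as lower, where it passed 35.5% of all genes, and limma on log2(FPKM + 0.1) passed 10, where it passed 15.5%. At an adjusted p under 0.05 there were 33 genes lower, where 40.6% of all genes were.

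The 15 genes with an adjusted p between those thresholds had values that ran from 0.00109 to 0.0176, and the standard errors of the 17 genes that did not pass reached 1.67 on the log2 scale. Without knockout library 1, which stood apart, 33 of the 35 genes passed both thresholds, where 31.6% of all genes tested passed as lower, and the exceptions were Gopc and Ly6k. Leaving out any other library, with 5 left in the fit, gave between 3 and 5 genes, where between 10.1% and 12.3% of all genes passed as lower. Izumo4, Dcst2 and Calr3 passed whichever library was left out.

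Summed over the 35 genes, TPM, a measure that adds up to the same total in every library, was 10874, 11069 and 11694 in the controls against 455, 937 and 959.8 in the knockout libraries. The groups were far apart on this sum. It was highest in every control for the acrosome matrix genes, at between 5882 and 6189, and in knockout library 1 the matrix genes held 8.97. In that library 349.7 of the 455 belonged to the chaperone and maturation genes, where Ly6k held 2245 of their 2371 counts.

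**Figure D1:**
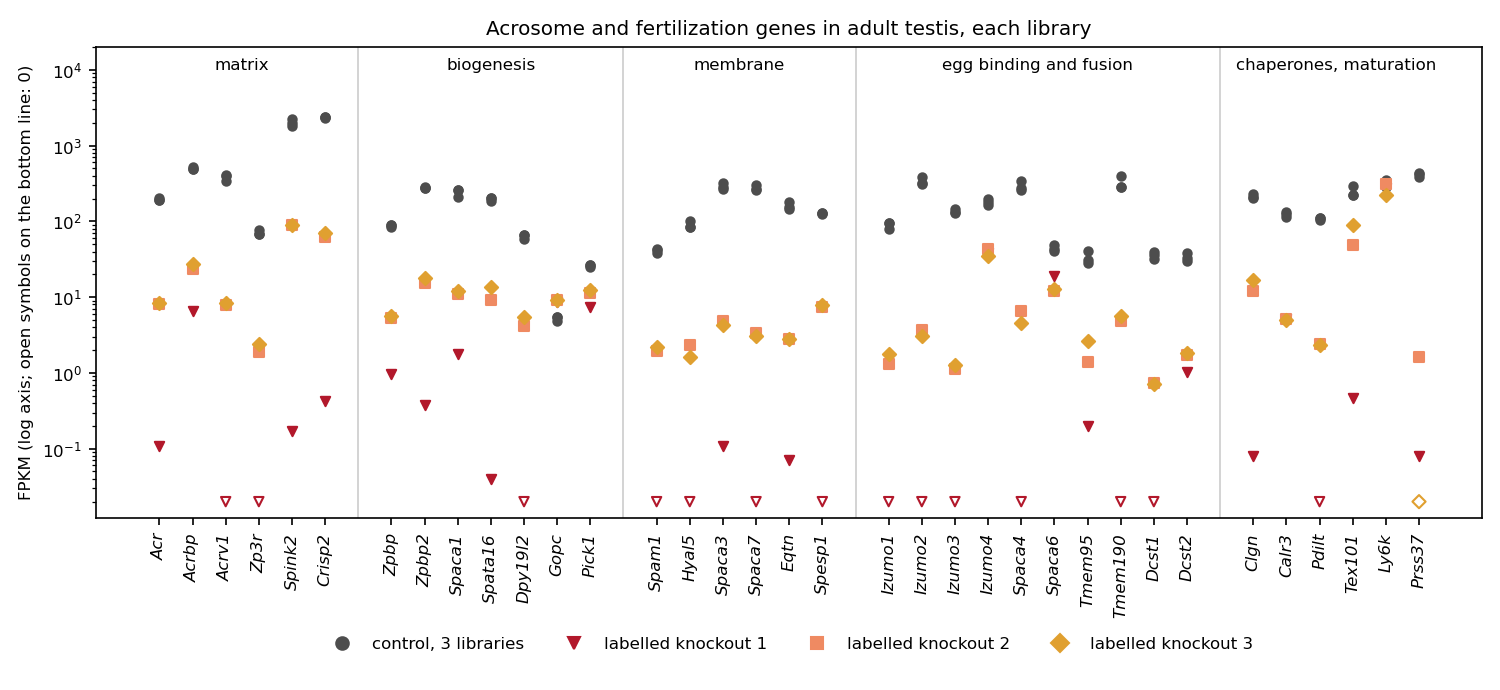
FPKM of each of the 35 genes in every adult testis library on a log axis, grouped by role, with controls as dark circles, knockout library 1 as triangles, 2 as squares and 3 as diamonds, and open symbols on the bottom line for a value of 0. For most genes the controls lie far above knockout libraries 2 and 3, which lie above library 1, where 14 genes are at 0. Calr3, Gopc, Izumo4, Ly6k, Spaca6, Pick1 and Dcst2 have their 3 knockout libraries closest together in FPKM.

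Control levels spanned a wide range before any comparison. Mean FPKM in the controls ran from 5.27 ± 0.41 (SD, n = 3) for Gopc to 2352 ± 64.5 (SD, n = 3) for Crisp2, with a median of 182, and the coefficient of variation between controls had a median of 8.04% and a maximum of 20.5%. Crisp2 and Spink2, at 2031 ± 228 (SD, n = 3), stood clear of Acrbp at 504 ± 16.4 (SD, n = 3). Some neighbours further down the order were closer than their spread, as with Spaca4 at 291 ± 42.0 and Spaca3 at 291 ± 28.4 (both SD, n = 3). Pick1 at 26.2 ± 0.81 (SD, n = 3) and Gopc closed the order, and these differed by more than their spread.

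Promoter sequences were set beside these changes, because most of these genes moved together. RefSeq promoter windows on GRCm38.p6, from 250 bases before to 50 bases after a gene's start, were matched for 30 of the 35 genes; Acr, Eqtn, Izumo4, Clgn and Ly6k had no entry. Both strands were searched for letters that CREM, MYBL1 and RFX proteins, transcription factors of meiotic and haploid germ cells, are known to bind. The full cyclic AMP response element TGACGTCA was in 1 of the 30 genes, Izumo1, and in 2.03% of 27025 genes. Its shorter core TGACGT, which the full element contains, was in 4 genes, Acrbp, Izumo1, Spesp1 and Tmem95, or 13.3%, against 8.37% of all genes. The MYB letters AACTGNC were in Pdilt and Prss37, or 6.67%, against 14.5% of all genes. The RFX letters GTTGCCA were in Pick1 and Spaca6, or 6.67%, against 5.03% of all genes. The letters TATAAA, searched for in the same way, were in Crisp2 and Spaca7, or 6.67%, against 15.7% of all genes. A match is a description of letters in a window and not a binding site. Of the windows, 120 bases are shown for the gene with the full element, for both genes with MYB letters and for both with RFX letters, 5′ to 3′ on the gene's strand, with the matched letters in capitals. The starts that RefSeq's table uses for Prss37, Pdilt, Pick1 and Spaca6 lie inside the genes' annotated spans. The Izumo1 stretch is chr7:45621659-45621778, plus strand, that of Prss37 chr6:40519604-40519723, minus strand, that of Pdilt chr7:119523553-119523672, minus strand, that of Pick1 chr15:79229040-79229159, plus strand and that of Spaca6 chr17:17830855-17830974, plus strand. For Pick1 the capitals mark a longer palindrome, GTTGCC and, after 2 bases, its reverse complement GGCAAC, which was searched for after the sequence had been seen and is in 30 of the 27025 genes, or 0.111%.
Izumo1: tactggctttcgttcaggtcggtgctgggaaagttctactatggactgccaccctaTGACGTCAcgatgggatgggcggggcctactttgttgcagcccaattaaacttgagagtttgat
Prss37: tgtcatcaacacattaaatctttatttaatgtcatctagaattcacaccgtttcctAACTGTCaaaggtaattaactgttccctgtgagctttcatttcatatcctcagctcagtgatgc
Pdilt: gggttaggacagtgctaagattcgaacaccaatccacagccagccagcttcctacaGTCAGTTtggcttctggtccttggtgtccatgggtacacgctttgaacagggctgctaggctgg
Pick1: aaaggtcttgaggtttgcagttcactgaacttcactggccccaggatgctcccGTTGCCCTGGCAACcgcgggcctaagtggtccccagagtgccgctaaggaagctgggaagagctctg
Spaca6: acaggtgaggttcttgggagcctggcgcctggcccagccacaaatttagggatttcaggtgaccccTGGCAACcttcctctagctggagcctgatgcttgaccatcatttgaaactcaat

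CpG content differed widely between the windows. The 30 genes had a median of 7.5 CG pairs per window against 8 over all genes, but Gopc and Zpbp2 had 26 and Pick1 24, while Hyal5, Spam1 and Izumo3 had 0. The 120 bases before the start of Gopc (chr10:52382125-52382244, minus strand) and of Hyal5 (chr6:24857877-24857996, plus strand) show these extremes, with each CG in capitals. Log2 fold changes were −0.10 for Gopc, −5.58 for Zpbp2 and −2.20 for Pick1, beside −6.98 for Hyal5, −5.77 for Spam1 and −8.28 for Izumo3, and a relation of CG pairs to fold change over the 30 genes was not tested. The start used for Hyal5 lies inside the gene's annotated span.
Gopc: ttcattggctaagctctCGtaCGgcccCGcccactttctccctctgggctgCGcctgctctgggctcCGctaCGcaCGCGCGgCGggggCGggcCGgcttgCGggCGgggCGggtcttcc
Hyal5: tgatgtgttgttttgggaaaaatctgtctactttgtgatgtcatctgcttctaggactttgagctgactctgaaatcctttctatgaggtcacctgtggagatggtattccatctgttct

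The 6 matrix genes encode the soluble content of the acrosome. All 6 were lower in every knockout library, beside 43.1% of all genes tested, and their log2 fold changes had a median of −6.26. Of these genes 1 passed both thresholds, beside 23.7% of all genes tested as lower, while 6 had an adjusted p under 0.05, beside 40.6%. Acrbp, which binds the zymogen of acrosin and keeps it condensed, had FPKM values of 492, 522 and 497 in the controls against 6.49, 23.9 and 27.7 in knockout libraries 1, 2 and 3. It fell by 5.59 on the log2 scale (SE 0.57, edgeR adjusted p = 0.000219). The groups did not overlap, and its first knockout library was the lowest. Acr, the serine protease acrosin itself, was at 189.7, 201 and 189.8 against 0.11, 8.04 and 8.39 (log2 fold change −6.01, edgeR adjusted p = 0.00475). Acrv1, a matrix protein also called SP-10, was at 339, 407 and 398 against 0, 7.91 and 8.40 (log2 fold change −7.03, edgeR adjusted p = 0.00431). Neither group overlapped the other, and in both genes the first knockout library was at or near 0. Zp3r, a matrix protein named for binding the zona pellucida, was at 67.5, 69.1 and 76.1 against 0, 1.88 and 2.39 (log2 fold change −6.50, edgeR adjusted p = 0.00208). The genes with the highest levels behaved alike in libraries 2 and 3. Spink2, an inhibitor that restrains acrosomal proteases, was at 2006, 2269.7 and 1817 against 0.17, 88.6 and 88.9, with a log2 fold change of −6.00 (SE 1.67, edgeR adjusted p = 0.0150). Crisp2, a cysteine-rich protein of the acrosome and tail, was at 2381, 2397 and 2278 against 0.42, 62.8 and 70.8, with a log2 fold change of −6.62 (SE 1.66, edgeR adjusted p = 0.00978). Both were under 1 FPKM in knockout library 1 and far above that in the others.

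The 7 biogenesis genes act in making the acrosome and attaching it to the nucleus. All 7 lay below the controls on TMM-scaled counts, beside 43.1% of all genes tested, and 3 passed both thresholds, beside 23.7% as lower. The median log2 fold change of the 7 was −5.39. Zpbp, a zona pellucida binding protein needed to compact the acrosome, was at 84.9, 88.7 and 89.7 in the controls against 0.97, 5.36 and 5.63 in the knockout libraries, and fell by 5.39 on the log2 scale (edgeR adjusted p = 0.000665). Spaca1, a membrane protein of the forming acrosome, was at 213, 258 and 262 against 1.75, 11.03 and 12.1, and fell by 5.75 (edgeR adjusted p = 0.000503). Pick1, a PDZ and BAR domain protein that carries Golgi vesicles to the acrosome, was at 26.8, 25.2 and 26.5 against 7.39, 11.3 and 12.4, and fell by 2.20 (SE 0.18, edgeR adjusted p = 0.000103). In contrast to the first pair, knockout library 1 of Pick1 was not far from the others. Zpbp2, the paralog of Zpbp, was at 278, 281 and 271 against 0.38, 15.2 and 17.6 (log2 fold change −5.58, edgeR adjusted p = 0.00585). Spata16, a Golgi and proacrosomal vesicle protein linked to globozoospermia, was at 201, 185 and 205 against 0.04, 9.24 and 13.7 (log2 fold change −5.59, edgeR adjusted p = 0.0128). Dpy19l2, an inner nuclear membrane protein that anchors the acrosome, was at 66.9, 57.9 and 66.8 against 0, 4.18 and 5.53 (log2 fold change −5.22, edgeR adjusted p = 0.0141). These genes were well apart between groups, and their standard errors were between 1.24 and 1.49. Gopc, a Golgi-associated PDZ protein that binds PICK1 and is used in many tissues, was at 5.53, 4.80 and 5.49 against 8.51, 9.06 and 9.09 (log2 fold change −0.10, SE 0.10, edgeR adjusted p = 0.396). Its knockout libraries were above the controls in FPKM and below them on TMM-scaled counts.

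The sign of the fold change of Gopc depended on the scaling of all genes. With total-count scaling its log2 fold change was 0.75 (edgeR adjusted p = 0.00137), but that scaling moved the median of all genes tested to 0.87, and relative to that median Gopc was at −0.12. With median-ratio scaling Gopc was at −0.30 and the median of all genes at −0.19. Relative to the control mean on TMM-scaled counts, Gopc was at 94.2%, 94.9% and 90.7% in knockout libraries 1, 2 and 3. The median of the 35 genes relative to all genes was between −5.75 and −5.80 across these scalings. A change of scaling moves all genes by nearly the same amount, so this agreement does not check which scaling is right.

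The 6 genes of the acrosomal and equatorial membranes and their secreted partners were low in the same way, with a median log2 fold change of −7.11. Of these genes 3 passed both thresholds, beside 23.7% of all genes tested as lower, and 6 had an adjusted p under 0.05, beside 40.6%. Spam1 and Hyal5 encode hyaluronidases that open the cumulus matrix around the egg, and lie on chromosome 6 at chr6:24791188-24801048, plus strand, and chr6:24857937-24891959, plus strand (GRCm38.p6). Spam1 was at 37.8, 41.5 and 42.7 in the controls against 0, 1.96 and 2.17 in the knockout libraries (log2 fold change −5.77, edgeR adjusted p = 0.00246). Hyal5 was at 83.2, 85.3 and 102 against 0, 2.32 and 1.60 (log2 fold change −6.98, edgeR adjusted p = 0.00183). Both hyaluronidases had 0 counts in knockout library 1. Spaca3, a lysozyme-like protein of the acrosome, was at 269.9, 323 and 280.1 against 0.11, 4.78 and 4.35, and fell by 7.43 (edgeR adjusted p = 0.000629). Spaca7, released when the acrosome opens, was at 258, 306 and 271 against 0, 3.35 and 3.10, and fell by 7.89 (edgeR adjusted p = 0.000512). Eqtn, equatorin of the equatorial segment, was at 145, 156 and 182 against 0.07, 2.78 and 2.76, and fell by 7.23 (edgeR adjusted p = 0.000732). In each of these 3 genes libraries 2 and 3 differed by less than 1 FPKM. Spesp1, an equatorial segment protein, was at 126, 128 and 128 against 0, 7.30 and 7.84 (log2 fold change −5.55, SE 1.60, edgeR adjusted p = 0.0173).

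The 10 genes of egg binding and fusion had a median of −7.12 in log2 fold change, and 9 of them passed both thresholds in edgeR's fit with all 6 libraries. In that fit 23.7% of all genes tested passed as lower. Izumo1, the sperm protein that binds JUNO on the egg (chr7:45621811-45627242, plus strand, GRCm38.p6), was at 79.9, 96.0 and 94.8 in the controls against 0, 1.30 and 1.78 in the knockout libraries. It fell by 7.34 on the log2 scale (SE 0.98, edgeR adjusted p = 0.000636), and the groups were far apart. In GENCODE M21, 21.9% of its exonic bases are shared with Rasip1 on the same strand. The estimated falls of its relatives Izumo2 and Izumo3 were larger, with SEs of 1.01 and 0.91, but the differences from Izumo1 were not tested. Izumo2 was at 324, 390.1 and 312 against 0, 3.67 and 3.07, and fell by 8.02 (edgeR adjusted p = 0.000492). Izumo3 was at 134, 146 and 128 against 0, 1.11 and 1.28, and fell by 8.28 (edgeR adjusted p = 0.000291). Izumo4, the family member without a transmembrane segment, was at 167, 196 and 182 against 38.3, 42.9 and 35.4, and fell by 2.69 (SE 0.16, edgeR adjusted p = 4.08e-05). It kept between 13.4% and 16.9% of its control mean in the 3 knockout libraries.

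Among the other genes of fusion, Spaca6 was also less far from the controls. Spaca6, a protein without which sperm bind but do not fuse, was at 41.2, 43.3 and 48.0 against 18.8, 12.2 and 12.9, and fell by 1.58 (SE 0.21, edgeR adjusted p = 0.000583). Its first knockout library was its highest of the 3, at 43.6% of the control mean against 28.3% and 28.5%. Tmem95, a sperm membrane protein required for fusion, was at 40.3, 31.0 and 28.2 against 0.20, 1.38 and 2.67, and fell by 5.41 (edgeR adjusted p = 0.000533). Tmem190, of the inner acrosomal membrane, was at 281, 395 and 282 against 0, 4.90 and 5.64, and fell by 7.44 (edgeR adjusted p = 0.000578). Spaca4, a LY6-type protein of zona binding, was at 273, 339 and 261 against 0, 6.56 and 4.54 (log2 fold change −7.18, edgeR adjusted p = 0.00109). It was the nearest to the threshold of the genes that did not pass. Dcst1 and Dcst2, membrane proteins that stabilise SPACA6, have overlapping spans on opposite strands of chromosome 3 (chr3:89350219-89365253, minus strand, and chr3:89350417-89377643, plus strand, GRCm38.p6), and the handling of strand in counting is not given in the sources used here. Dcst1 was at 31.6, 35.9 and 38.9 against 0, 0.74 and 0.71, and fell by 7.06 (edgeR adjusted p = 0.000452). Dcst2 was at 30.4, 32.7 and 38.8 against 1.03, 1.71 and 1.82, and fell by 5.36 (SE 0.24, edgeR adjusted p = 2.79e-05). Dcst2 had 34 counts in knockout library 1 where Dcst1 had 0.

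The 6 chaperone and maturation genes were the most mixed, at a median of −5.45 in log2 fold change and a range from −10.35 to −1.11. Clgn, Calr3 and Pdilt encode chaperones of the testis endoplasmic reticulum. Calr3 was at 133, 125 and 115 in the controls against 5.22, 5.12 and 4.99 in the knockout libraries, and fell by 5.54 (SE 0.17, edgeR adjusted p = 2.70e-05). Its 3 knockout libraries were nearly equal, library 1 included. Clgn was at 227, 213 and 204 against 0.08, 12.1 and 16.8 (log2 fold change −5.36, SE 1.55, edgeR adjusted p = 0.0176). Pdilt was at 104, 111 and 111 against 0, 2.40 and 2.37 (log2 fold change −6.98, edgeR adjusted p = 0.00249). Clgn and Pdilt were at or near 0 in library 1 and well below the controls in the others.

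Tex101, Ly6k and Prss37 act on the maturation of ADAM3 and other sperm surface proteins. Prss37, a protease-like protein without which sperm do not pass into the oviduct, was at 436, 426 and 385 against 0.08, 1.61 and 0, with 1, 21 and 0 counts in the knockout libraries. It fell by 10.35 on the log2 scale (SE 1.35, edgeR adjusted p = 0.000579), the largest fall of the 35 genes. Tex101, a GPI-anchored LY6-type protein, was at 226, 295 and 226 against 0.47, 49.2 and 90.8 (log2 fold change −3.32, SE 1.36, edgeR adjusted p = 0.0605). All 3 knockout libraries were below the controls, and without knockout library 1 the log2 fold change was −2.61 with an edgeR adjusted p of 1.42e-05. Ly6k, its GPI-anchored partner, was at 323, 353 and 288 against 274, 313 and 222 (log2 fold change −1.11, SE 0.20, edgeR adjusted p = 0.00250). Its groups overlapped in FPKM and did not overlap on TMM-scaled counts, and with total-count scaling its log2 fold change was −0.26 (edgeR adjusted p = 0.209). Ly6k shares 47.6% of its exonic bases with the antisense gene Gm17189, so that without strand, reads on the shared bases cannot be told apart between these genes. Exonic bases are also shared with other annotated genes by Acrbp (29.8%), Dcst1 (24.2%), Pick1 (18.6%) and Spaca7 (13.5%).

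**Figure D2:**
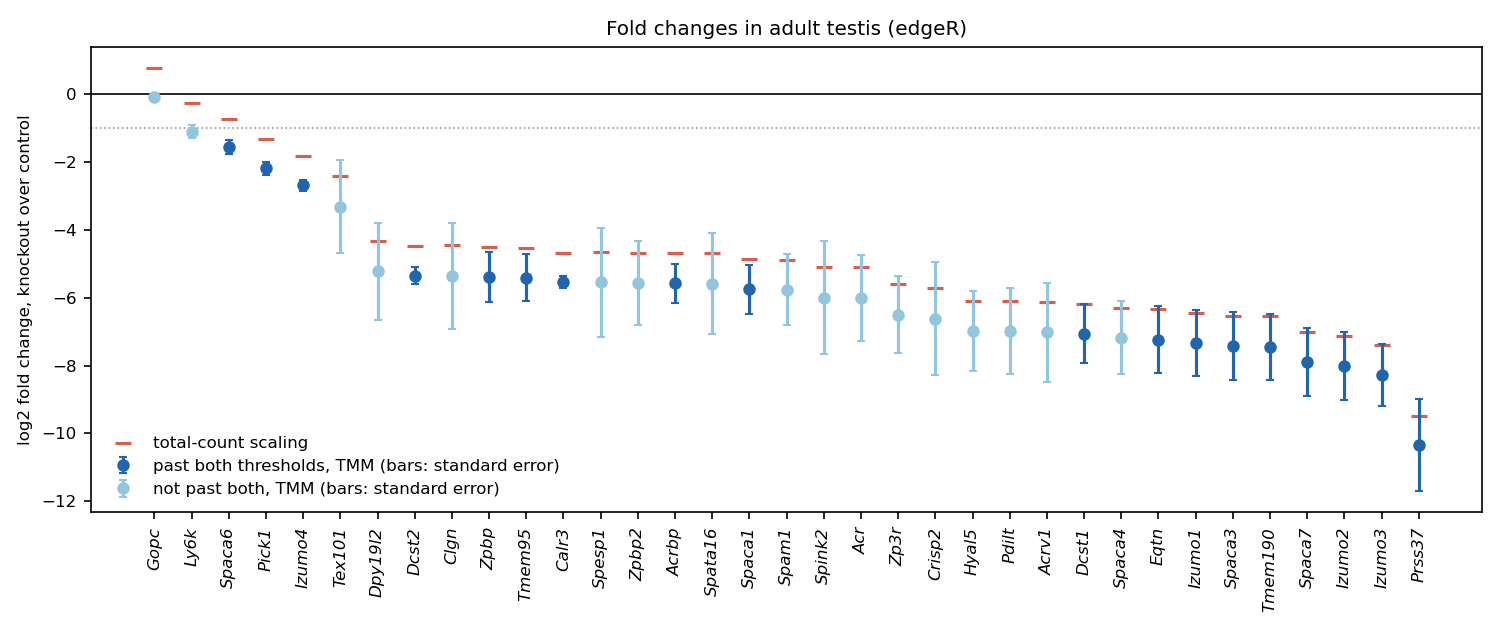
Log2 fold change, knockout over control, of each of the 35 genes in adult testis from edgeR with TMM scaling, ordered by size, with bars for the standard error; dark points passed both thresholds, pale points did not, and short red lines give total-count scaling. Gopc and Ly6k lie nearest to 0, Prss37 lies lowest at −10.35, and total-count scaling raises every gene and puts Gopc above 0.

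The level left in each knockout library was expressed as a percentage of the control mean on TMM-scaled counts. In libraries 2 and 3, 6 genes kept over 5%, namely Gopc, Ly6k, Spaca6, Pick1, Izumo4 and Tex101. The limit of 5% was chosen after the values were seen. With total-count scaling, tried after the values were seen, 11 genes kept over 5%, these 6 with Zpbp, Zpbp2, Dpy19l2, Spesp1 and Clgn. On TMM-scaled counts Ly6k kept 49.3%, 53.2% and 36.2%, Pick1 kept 16.5%, 23.8% and 25.0%, and Tex101 kept 0.11%, 10.8% and 19.1% in libraries 1, 2 and 3. The first 5 of these genes kept over 10% in all 3 libraries, and Tex101 did not. The other 29 genes kept a median of 1.48% in library 2, from 0.21% to 3.53%, and a median of 1.80% in library 3, from 0% to 4.51%, and with total-count scaling these medians were 2.68% and 3.43%. In library 1 their median was 0.0048% and their maximum 2.39%, held by Calr3. As a description across genes, which are not independent replicates, the percentages in libraries 2 and 3 had a Spearman rho of 0.957 over the 35 genes, and those in libraries 1 and 2 had 0.652. All of these percentages share the controls they are divided by.

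Knockout library 1 held few reads of these genes. Of the 35 genes, 14 had 0 counts there and 21 had at most 3, against 0 genes with 0 counts in library 2 and 1 gene, Prss37, in library 3. For the 14 genes, 3 counts would be between 0.0313% and 0.148% of the control mean, which is the level that a count of 0 allows for counting error. The summed counts of the 35 genes were 4525, 10553 and 10624 in the knockout libraries and 165898, 171324 and 162407 in the controls. In library 1, 10 genes had more than 20 counts, a limit chosen after the values were seen. Ly6k had 2245, Izumo4 608, Spaca6 552, Gopc 546, Pick1 202, Acrbp 116, Calr3 115, Zpbp 48, Dcst2 34 and Spaca1 24. The other 25 genes had at most 8, and the limit was placed in the gap between 8 and 24.

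**Figure D3:**
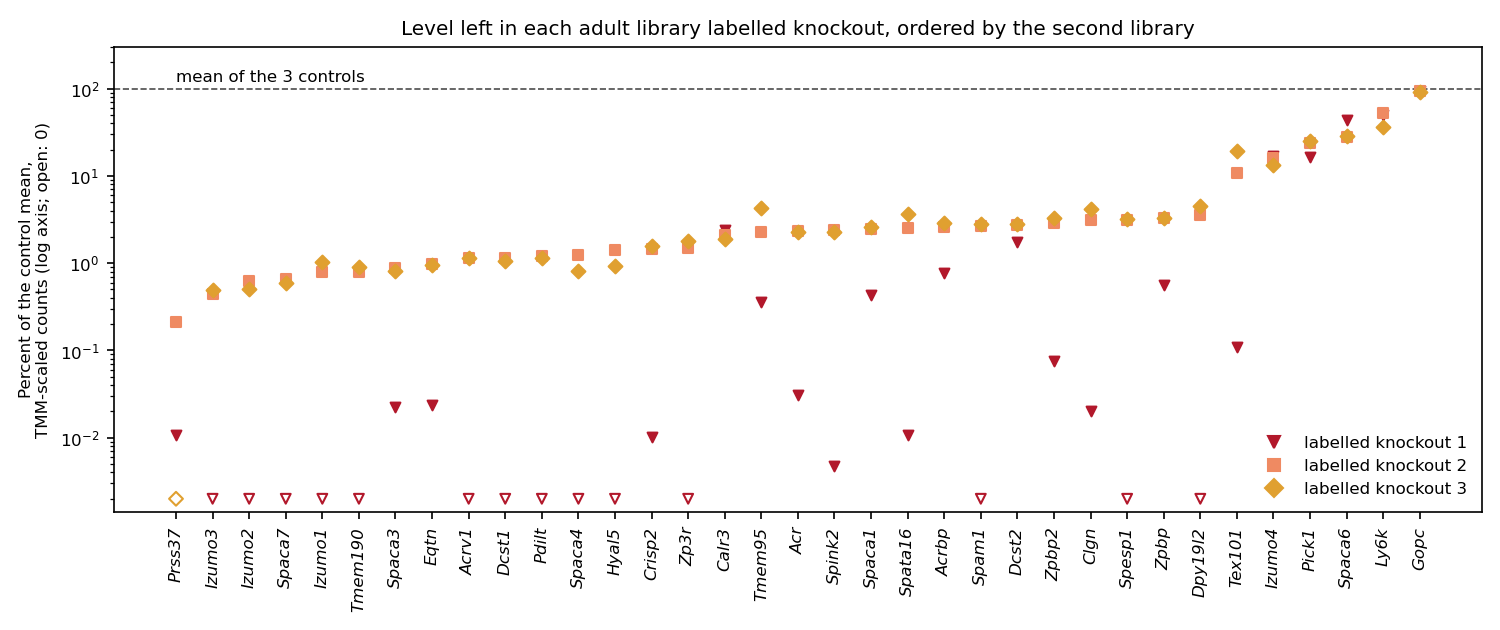
Level of each gene in knockout libraries 1, 2 and 3 as a percentage of the mean of the 3 controls on TMM-scaled counts, on a log axis, ordered by library 2, with open symbols for a count of 0. Libraries 2 and 3 lie close together for most genes, though Prss37 at the left has 0 counts in library 3, and library 1 lies far below them for most genes and nearest to them at Calr3, Gopc, Izumo4, Ly6k, Spaca6, Pick1 and Dcst2.

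Levels of relatives were compared within each adult library, by a test in which no pair could reach 0.05 with this number of libraries. Differences of log2(FPKM + 0.1) between 8 pairs, chosen after their values were seen, were compared by an exact two-sided permutation test over libraries, in which 3 against 3 cannot give a p under 0.1. Izumo4 over Izumo1 was 1.06, 1.03 and 0.94 in the controls against 8.58, 4.94 and 4.24 in the knockout libraries, a difference of 4.91 (exact p = 0.1, adjusted p = 0.133 over the 8 pairs). All 3 knockout libraries were above the controls. Izumo1, Izumo2, Izumo3, Dcst1, Spam1 and Hyal5 were at 0 in knockout library 1, so the pseudocount sets the values of their pairs there, and each difference is also given without that library. For Izumo4 over Izumo1 it was then 3.58. Izumo4 over Izumo2 and over Izumo3 differed by 6.10 and 5.72, each with the same exact p, and by 4.41 and 4.50 without library 1. Dcst2 over Dcst1 was between −0.14 and −0.0048 in the controls against 3.50, 1.11 and 1.25 in the knockout libraries, a difference of 2.01 (exact p = 0.1, adjusted p = 0.133), or 1.24 without library 1. Ly6k over Tex101 was between 0.26 and 0.51 in the controls against 8.91, 2.67 and 1.29 in the knockout libraries, a difference of 3.91 (exact p = 0.1, adjusted p = 0.133), or 1.60 without library 1. In both pairs the groups did not overlap. Spam1 over Hyal5 differed by 1.20 (exact p = 0.1), and by 1.23 without library 1. Zpbp over Zpbp2 differed by 1.004 (exact p = 0.2, adjusted p = 0.229), and only library 1, at 1.16 against between −1.71 and −1.60 in the controls, was far from the rest; without it the difference was 0.10. Calr3 over Clgn was between −0.82 and −0.77 in the controls and was 4.89, −1.22 and −1.73 in the knockout libraries, so that library 1 lay above the controls and the others below. The difference was 1.43 (exact p = 1) and −0.69 without library 1.

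Genes of the same pathways outside the 35 were described from lists put together by function. Of 16 other acrosome biogenesis genes, 9 passed both thresholds as lower, beside 23.7% of all genes tested, and 0 as higher, beside 23%, and the median log2 fold change was −5.13. The highest control level was 914 FPKM for Fam209, and the largest called fall was −8.13 for Actl9, an actin-like protein that attaches the acrosome. Vps54, a Golgi tethering protein, was at 0.51 with an edgeR adjusted p of 0.00853. Of 17 other genes of sperm and egg interaction that were listed, 9 passed as lower and 0 as higher, beside the same shares of all genes, with a median of −5.85; Pmis2 was absent. Here the highest control level was 1267 FPKM for Cmtm2a, and the largest called fall was −10.17 for Prss55, a serine protease-like protein of sperm. Tpst2, a tyrosine sulfotransferase of many tissues, was at 2.36 (edgeR adjusted p = 0.00106). Both medians lay close to the −5.77 of the 35 genes.

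The machinery of acrosome exocytosis, which many tissues use for secretion, had members on both sides of 0. Of 11 genes 9 were tested, of which 2 passed as lower, beside 23.7% of all genes, and 1 as higher, beside 23% of all genes. The median log2 fold change was 0.24, against 0.01 over all genes tested. Plcd4, a phospholipase C that sperm need for the acrosome reaction, had the largest called fall at −5.74, and Cplx1, a complexin, was at −3.32. Nsf, the ATPase that recycles SNARE complexes, rose by 1.29 (edgeR adjusted p = 0.000439). Napa had the highest control level, 107.7 FPKM. Among 7 egg-side partners, Cd9 and Cd81, tetraspanins also present on many somatic cells, rose by 2.41 and 3.17 (edgeR adjusted p = 0.000431 and 0.000240), while Izumo1r, Zp1, Zp2 and Zp3 were too low to test and Astl was absent.

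In the day 7 Sertoli cell cultures most of these genes were absent or too low to test. Of the 35 genes, 10 were absent from the table, namely Acrv1, Spata16, Spam1, Spaca3, Spaca7, Izumo2, Izumo3, Dcst1, Pdilt and Prss37. Another 14 were listed, with between 0 and 28 counts in a library and at most 0.57 FPKM, and were not tested. The remaining 11 genes reached 0.5 FPKM in 2 or more libraries and were tested. Their summed TPM, with the 14 others, was 72.0 and 72.3 in the Rnf20 Flox/Flox libraries and 76.9 and 70.0 in the Amh-Rnf20-/- libraries. The groups overlapped on this sum.

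At day 7, 0 of the 11 genes passed both thresholds in edgeR's test, 0 had an unadjusted p under 0.05, and limma and DESeq2 also passed 0. Over all 12880 genes tested, 0% passed both thresholds as lower and 0% as higher, 15.5% had an unadjusted p under 0.05, and DESeq2 passed 0.171% as lower and 0.807% as higher. Both Amh-Rnf20-/- libraries lay below both controls on TMM-scaled counts for 2 of the 11 genes, where 26.1% of all genes did, and above them for 1, where 24.8% did. With 2 libraries a group, chi-square per degree of freedom was 34.3 between the Amh-Rnf20-/- libraries and 2.65 between the controls. The 12 Sertoli cell markers had counts in all 4 libraries, though Rhox5 had only between 2 and 6. Of these, 9 of 12 lay lower in both Amh-Rnf20-/- libraries, as did 11 of 12 spermatogonium markers. All 6 peritubular myoid, all 6 stromal fibroblast and 3 of the 5 tested Leydig cell markers lay above both controls in both Amh-Rnf20-/- libraries. The summed FPKM of the myoid markers was 2432 and 2314 against 3989 and 4169 in the Amh-Rnf20-/- libraries, and that of the fibroblast markers 2152 and 2236 against 3920.1 and 3306. That of the 12 Sertoli cell markers was 1831 and 1662 against 924 and 1350, below both of these sums in every library. Of the 12 spermatid markers 7 were listed. Crem alone was tested, at 4.09 and 4.27 FPKM in the controls and 2.66 and 3.15 in the Amh-Rnf20-/- libraries, and the other 6 had at most 0.46 FPKM in any library. The part of these cells in the values was not tested.

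The 5 highest of these genes at day 7 by mean FPKM were Gopc, Pick1, Tex101, Spaca6 and Ly6k in both groups. Tmem95 came next in the Rnf20 Flox/Flox libraries and Izumo4 in the Amh-Rnf20-/- libraries. Of the 11 tested genes 6, these 5 and Izumo4, kept over 5% of the control mean in both adult knockout libraries 2 and 3, with either scaling, while Tmem95, Acrbp, Spink2, Spaca1 and Calr3 did not do so in both libraries with either scaling. Pick1 was at 8.81 and 8.90 FPKM in the Rnf20 Flox/Flox libraries and 7.25 and 9.39 in the Amh-Rnf20-/- libraries (log2 fold change −0.05, SE 0.17). Gopc was at 8.61 and 8.06 against 11.4 and 7.49 (log2 fold change 0.22, SE 0.22). In both genes the groups overlapped. Spaca6 was at 4.16 and 4.88 against 5.04 and 5.65 (log2 fold change 0.12, SE 0.17). Ly6k was at 4.79 and 3.22 against 4.44 and 5.74 (log2 fold change 0.38, SE 0.32). Izumo4 was at 2.38 and 2.41 against 4.72 and 2.54 (log2 fold change 0.58, SE 0.36). In FPKM both Amh-Rnf20-/- libraries were above both controls for Spaca6 and Izumo4, but on TMM-scaled counts these groups overlapped. For Izumo4 the first Amh-Rnf20-/- library alone was above the rest by more than 2 FPKM. Of the 10 genes with more than 20 counts in adult knockout library 1, 8 were tested at day 7, which is 80% of those 10 and 72.7% of the 11. Of all 17816 genes listed at day 7, 12880 were tested. The same overlap was not counted over all genes, and both limits used here were chosen after the adult values were seen.

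Of the 11 tested genes, Tex101 and Tmem95 were those with both Amh-Rnf20-/- libraries lower, on FPKM and on TMM-scaled counts. Tex101 was at 7.01 and 8.67 against 4.31 and 6.28 (log2 fold change −0.53, SE 0.27, edgeR adjusted p = 0.416). Tmem95 was at 3.35 and 3.65 against 2.86 and 2.40 (log2 fold change −0.39, SE 0.25, edgeR adjusted p = 0.514). Neither difference passed the test, and that of Tex101 had the smallest adjusted p of the 11 genes. Spink2 was the tested gene with both higher on TMM-scaled counts, at 0.80 and 1.13 against 1.75 and 1.29, which rested on 5 and 7 counts against 11 and 8 (log2 fold change 0.69, SE 0.47, edgeR adjusted p = 0.538). Calr3 was at 1.85 and 1.42 against 0.83 and 1.81 (log2 fold change −0.25), Acrbp at 1.46 and 1.88 against 1.03 and 1.63 (−0.27), and Spaca1 at 0.57 and 1 against 1.21 and 0.43 (0.10). These 3 genes overlapped between the groups.

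**Figure D4:**
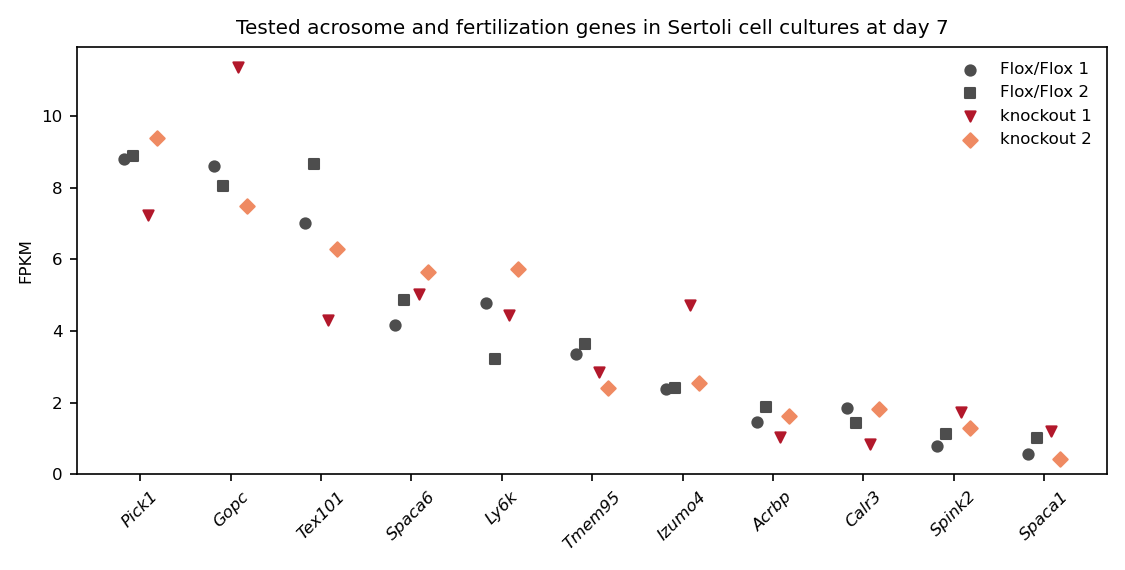
FPKM of the 11 tested genes in each day 7 Sertoli cell library, with Rnf20 Flox/Flox libraries as dark symbols and Amh-Rnf20-/- libraries as coloured symbols. The highest value is 11.4, for Gopc in the first Amh-Rnf20-/- library, and of these 11, Tex101 and Tmem95 are those with both Amh-Rnf20-/- libraries below both controls.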

How the data were processed

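RNA-seq of 6 adult testis libraries and 4 Sertoli cell libraries was analysed. The authors mapped reads to GRCm38.p6 with HISAT and Bowtie2 and ran RSEM, and the adult experiment is not described in the paper's text. Versions and strand handling are not given in the sources used here. The deposited tables give each gene an estimated count without normalization. The deposited FPKM and TPM correct for length and depth, TPM to an equal total per library, and both were used as levels only. The adult table has 20 further columns without values, which were not used.

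Estimated counts were rounded and tested with edgeR 4.0.16 (quasi-likelihood, TMM, Benjamini-Hochberg over all genes tested) within each table, the design's choice for tables with counts. Genes that reached 0.5 FPKM in as many libraries as a group holds were tested, 15919 in adult testis and 12880 at day 7. A standard error is the log2 fold change over the root of the F statistic. Alternatives used limma 3.58.1 on log2(FPKM + 0.1) and log2(FPKM + 1), whose fold changes are on those scales and depend on the pseudocount for low genes, and DESeq2 1.42.0, other scalings and filters, a replicate block and each library left out. R 4.3.3, Python 3.11.15 and scipy 1.17.1 were used. Coordinates and promoters come from RefSeq (GRCm38.p6) and exons from GENCODE M21 (GRCm38).

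All 35 genes are named. From each other list the text names the highest control level and the largest calls, and genes named beyond that, such as Vps54, Tpst2, Rhox5 and single markers at 0, were chosen after their values were seen. The genes and lists were chosen with earlier results of these data known. Knockout labels follow the submitters. Depth per library was between 15431912 and 17705347 counts, and intervals or limits from counts cover counting error only.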

Additional observations from a re-analysis of the deposited data

Results flagged for a closer look

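Spink2, the inhibitor of acrosomal proteases, lay on opposite sides of its controls in the 2 kinds of sample. Its log2 fold change was 0.69 in the day 7 Sertoli cell cultures, with both Amh-Rnf20-/- libraries above both controls but not past the test (SE 0.47, edgeR adjusted p = 0.538), and −6.00 in adult testis, with all 3 knockout libraries below all 3 controls. The difference between the tables was not tested, since they are separate tables, and the day 7 value rests on 5 and 7 counts against 11 and 8.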

How the results depend on the processing

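The number of the 35 genes called lower in adult testis was 18 and ran from 12 to 25 under median-ratio scaling, total-count scaling, both other filters and limma with a pseudocount of 1, where between 14.1% and 26.3% of all genes passed as lower. It was 10 with limma at a pseudocount of 0.1, 33 with DESeq2, 33 at an adjusted p under 0.05 without a fold threshold, and between 3 and 33 with each library left out, 33 being without knockout library 1. With the replicate number as a block, 0 genes passed both thresholds in edgeR, as did 0% of all genes tested, and 31 were lower at an adjusted p under 0.05, where 38.6% of all genes were. Same-numbered adult libraries had correlations of 0.0076, 0.0062 and 0.027, and those at day 7 had 0.032. With 2 libraries a group, all day 7 correlations have the same size. Low correlations over all genes cannot exclude that same-numbered libraries share a litter or a batch, which was not tested. No gene was called higher in adult testis under these alternatives.

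The log2 fold change was below 0 for at least 34 of the 35 genes under every adult alternative run, Gopc being the exception. Gopc reversed to 0.75 with total-count scaling and to 0.74 and 0.66 with limma at pseudocounts of 0.1 and 1, and it ran from −0.13 to 0.030 with each library left out, above 0 without knockout library 1 or 3. The median of all genes tested was 0.87, 0.81 and 0.65 under the first 3 of these settings, and 0.15 and 0.077 without knockout library 1 and without library 3, and Gopc lay below it except with limma at a pseudocount of 1, where the values were nearly equal.

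At day 7, 0 genes were called under every alternative run. With each library left out, log2 fold changes crossed 0 for Acrbp (−0.65 to 0.024), Spaca1 (−0.84 to 0.67), Gopc (−0.12 to 0.49), Pick1 (−0.24 to 0.12), Calr3 (−0.84 to 0.17) and Spaca6 (−0.035 to 0.28). Spaca1 was at −0.043 with limma at a pseudocount of 0.1. In the fits with a library left out, the group that lost it has no spread of its own, so only their effect sizes are given. The causes were not tested. Depth bounds how low a level can be read for the 14 genes at 0 counts in adult knockout library 1. That library had 15911854 counts, within the range of the adult libraries. The same bound holds for most genes at day 7, where the 14 listed but untested genes had at most 28 counts.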
